A study of Mus musculus with 6 samples.

Results

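Lmo7 (ENSMUSG00000033060) encodes LIM domain only 7, a large scaffold protein of the actin cytoskeleton. It is 1 gene of the 54232 in the count table and 1 of the 10067 with enough counts to be tested. It was chosen by its counts in these 6 libraries, as a gene outside the cell division programme that was among the most raised under casein kinase 1 inhibition, so its difference between the treatment groups is given as a description, with no test. Its rank by p had a part in that choice and draws on its spread within the groups, which is likewise only described. The measures that did not choose it are the order of the libraries within each group, its neighbourhood in the genome, and its relatives and partners. Its promoter letters did not choose it either, but the motifs were picked after they were seen, so they are only described.

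LMO7 carries a calponin homology domain, a PDZ domain and a LIM domain. In rodent epithelial cells it binds afadin and alpha-actinin and connects nectin and cadherin junctions to actin filaments. It also moves between the cell surface and the nucleus and binds emerin, a protein of the inner nuclear membrane, in muscle cells. Less is known of it in B cells, which do not build epithelial junctions.

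The libraries came from leukaemia cells sorted from the spleens of C57BL/6J wild-type recipients of chronic lymphocytic leukaemia (CLL) cells. The donors were Eµ-TCL1 mice at the terminal stage of disease, which carry a TCL1 transgene driven in B cells by an immunoglobulin enhancer. From day 5 after transfer the CK1i group (3 libraries) received 50 mg/kg PF-670462, which inhibits the delta and epsilon forms of casein kinase 1, by mouth in 10% kolliphor in PBS, and the CTRL group (3 libraries) received 10% kolliphor in PBS alone. Both followed cycles of 5 days of dosing and 2 days without, for 8 weeks in all, and ages are not given in the labels used here. The labels do not state how many donors were used or whether every library is a separate mouse, and replicates are numbered here in accession order within each group, so a shared number pairs nothing. The errors below measure the spread between these libraries, which may be technical.

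The libraries held 2472064 to 3105137 counts in CK1i and 2472320 to 3064371 counts in CTRL, and 14339 to 14836 genes had a count in a library. CTRL replicate 1 stood apart on the first principal component, at 31.4 against -12.4 to 4.68 in the other 5 libraries. B-cell markers were plentiful: the summed level of 10 B and CLL cell markers was 7627 to 7834 CPM (read counts relative to the library total, after scaling between libraries) in CK1i and 7530 to 8657 CPM in CTRL, and none of the 10 was at 0. Cd79a, a chain of the B-cell receptor, averaged 11.7 CPM in the CK1i libraries and 14.7 CPM in the CTRL libraries. Cd5, which marks this leukaemia, averaged 29.6 ± 1.99 CPM in the CK1i libraries and 29.8 ± 4.25 CPM in the CTRL libraries (SD, n = 3).

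The gene lies on the plus strand of chromosome 14, from 101729957 to 101934710 on GRCm38, a span of 204.8 kb. GENCODE M21 lists 16 transcripts of it, 5 of them protein-coding, and no other annotated gene overlaps it. The longest model, Lmo7-201, has 31 exons and a spliced length of 6092 bases. Because the libraries were made from the 3' ends of transcripts, a count does not tell which of the starts of the gene was used.

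RefSeq holds 2 promoter windows for Lmo7 on GRCm38.p6, each reaching from 250 bases before a transcript start to 50 bases after it. They are shown because many genes with log2 fold changes like that of Lmo7 were genes of mitosis, a good share of which carry the letters TTTGAA of the cell cycle genes homology region (CHR) near their start. Capitals mark matches on either strand to TTTGAA, to GCGGGAA (an E2F motif), to CCAAT or to CACGTG (an E-box). No 2 of these matches overlap, and the second window holds none. The first window is chr14:101729678-101729977 and the second chr14:101840373-101840672, both on the plus strand.
Lmo7 start 1: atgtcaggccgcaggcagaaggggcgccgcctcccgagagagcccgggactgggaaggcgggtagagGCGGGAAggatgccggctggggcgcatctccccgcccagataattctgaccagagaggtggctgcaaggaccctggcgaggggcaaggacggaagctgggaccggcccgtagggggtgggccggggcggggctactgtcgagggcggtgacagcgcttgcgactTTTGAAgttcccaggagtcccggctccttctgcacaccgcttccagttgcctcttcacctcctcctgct
Lmo7 start 2: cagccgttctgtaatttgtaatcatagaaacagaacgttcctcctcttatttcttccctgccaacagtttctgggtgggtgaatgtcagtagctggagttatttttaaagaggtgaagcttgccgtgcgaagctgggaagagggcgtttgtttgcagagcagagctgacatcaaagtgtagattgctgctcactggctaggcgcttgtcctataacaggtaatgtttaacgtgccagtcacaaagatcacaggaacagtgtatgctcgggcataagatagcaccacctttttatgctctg

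The TTTGAA match in the first window began 19 bases before the RefSeq start. The GCGGGAA match began 183 bases before it. The windows also differed in base composition, with 67.7% G and C in the first and 46% in the second. Among all 32851 RefSeq promoter windows of the same length, 17.9% held TTTGAA on either strand, against 75.4% of the 61 windows of the mitosis genes and 10.7% of the 84 windows of the LIM domain genes. Within 50 bases of the start, the share was 63.9% for the mitosis genes and 1.19% for the LIM domain genes, and 5.14% for all windows. CCAAT was found in 73.8% of the mitosis windows and 37.4% of all windows, and in neither Lmo7 window. GCGGGAA was found in 3.28% of the mitosis windows and 4.6% of all windows. CACGTG was found in 6.56% of the mitosis windows and 7.15% of all windows. A match describes letters and is not a measured binding site. The motifs were picked after the Lmo7 windows were seen, so the matches in them are no test.

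The stretch of 50 bases around the match in Lmo7 is set beside those of 4 mitosis genes, with the TTTGAA letters, or TTCAAA where the match is on the other strand, in capitals. For each gene the match nearest to the start was taken, and only that match is in capitals. The Mki67 stretch holds a second one, farther out, and its marked match began 98 bases before the start, farther than in the other 4 genes. All are from RefSeq on GRCm38.p6, in the direction of transcription. Their regions are chr14:101729887-101729936 on the plus strand for Lmo7, chr2:164769878-164769927 on the plus strand for Ube2c, chr9:70421523-70421572 on the minus strand for Ccnb2, chr11:99024185-99024234 on the minus strand for Top2a and chr7:135716450-135716499 on the minus strand for Mki67.
Lmo7: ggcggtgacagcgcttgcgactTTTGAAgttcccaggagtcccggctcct
Ube2c: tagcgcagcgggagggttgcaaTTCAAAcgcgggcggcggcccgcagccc
Ccnb2: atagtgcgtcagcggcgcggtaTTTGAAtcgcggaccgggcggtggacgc
Top2a: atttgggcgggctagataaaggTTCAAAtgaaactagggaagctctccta
Mki67: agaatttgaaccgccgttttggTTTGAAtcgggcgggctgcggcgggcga

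Lmo7 was detected in every library. It had 185, 190 and 223 counts in CK1i replicates 1, 2 and 3, against 81, 109 and 107 counts in CTRL replicates 1, 2 and 3. Scaled for library size these were 60.9, 62.0 and 89.4 CPM in CK1i and 28.8, 43.5 and 35.7 CPM in CTRL. CK1i replicate 3 was the highest library, CTRL replicate 1 the lowest, and the groups did not overlap. The closest pair across the groups was CK1i replicate 1, with an exact 95% Poisson interval of 52.4 to 70.3 CPM, and CTRL replicate 2, with 35.7 to 52.5 CPM. The intervals of these 2 libraries met at their ends, and they cover counting error only.

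The mean was 70.8 ± 16.2 CPM over the CK1i libraries and 35.996 ± 7.38 CPM over the CTRL libraries (SD, n = 3). The log2 fold change was 0.97 ± 0.20 (SE), or 1.96-fold, and 0.83 without CTRL replicate 1. The biological coefficient of variation within groups was 0.161 for Lmo7 and 0.153 at the median of all tested genes. edgeR draws such values of single genes toward those of other genes, so their closeness is partly built in. The observed coefficient of variation of Lmo7 in CPM was 22.9% over the CK1i libraries and 20.5% over the CTRL libraries. In CTRL libraries the level of Lmo7 was above that of 49.9% of the tested genes, on a scale of 3' end counts that is not divided by transcript length. In bulk libraries, a change in the share of cells with the transcript and a change in the RNA per cell cannot be told apart.

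**Figure D1:**
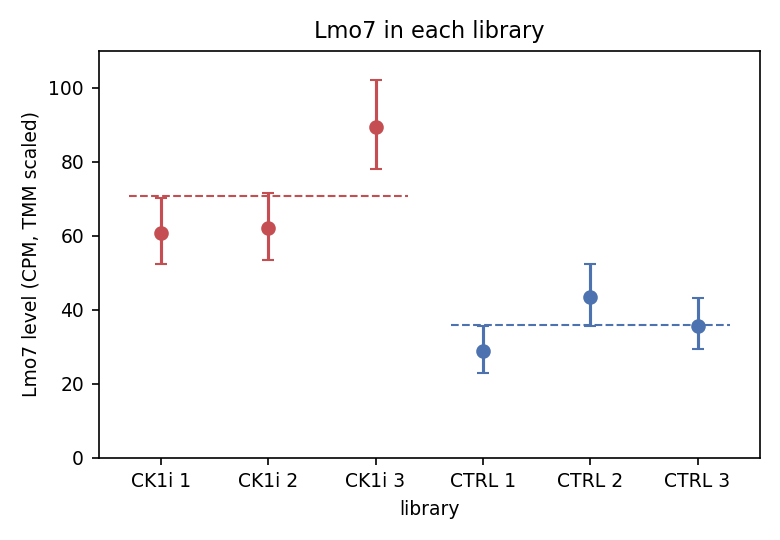
Lmo7 level in each library in CPM after TMM scaling; points are libraries, bars are exact 95% Poisson intervals of the count, and dashed lines are group means. The CK1i libraries lie between 60.9 and 89.4 CPM, all above the CTRL libraries at 28.8 to 43.5 CPM.

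No gene passed the adjustment: of the 10067 tested, 0 (0%) had a Benjamini-Hochberg adjusted p under 0.05 in edgeR's quasi-likelihood test, where the lowest was 0.224. An unadjusted p under 0.05 was found for 473 genes (4.70%). DESeq2 called 8 genes at an adjusted p under 0.05 (0.0795%) and limma-voom 0. The CK1i libraries were all higher than every CTRL library in 525 genes (5.22%) and all lower in 451 (4.48%). The values that chose Lmo7 place it at rank 5 by p among genes with higher values in CK1i and at rank 21 among the 8286 genes of at least 10 CPM by log2 fold change. Of the 20 genes of this kind with a larger log2 fold change, 11 are in the mitosis list. The genes next to it in that order were Kntc1 (1.00 ± 0.20), a kinetochore protein, on the larger side and Brca2 (0.97 ± 0.21), which serves DNA repair by recombination, on the smaller side (log2 fold change ± SE).

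Genes of mitosis had higher values in CK1i libraries almost throughout. The list holds 64 genes of the spindle, kinetochore, condensin and anaphase machinery, of which 62 could be tested. Of these 61 were higher (98.4%, against 48.8% of all tested genes), 49 were higher with an unadjusted edgeR p under 0.05 (2.70% of all tested genes were), 0 were lower at that p, and 0 passed the adjustment over all genes. The median log2 fold change was 0.76, against -0.0055 for all tested genes, and 0.53 without CTRL replicate 1. In 44 of the 62 the CK1i libraries lay above all CTRL libraries, as in 5.22% of all tested genes. Lmo7 had a larger log2 fold change than 49 of the 62 and a smaller one than 13.

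The members with the smallest p were Troap, Kntc1, Kif20a, Sgo2a, Ube2c, Nusap1, Ccnb2 and Cenpf, with adjusted p from edgeR between 0.224 and 0.409. Ube2c, which works with the anaphase-promoting complex to mark mitotic proteins for degradation, had 37.5, 69.8 and 44.1 CPM in CK1i replicates 1 to 3, against 12.1, 25.1 and 19.0 CPM in CTRL replicates 1 to 3. Ccnb2, a mitotic cyclin, had 39.2, 41.8 and 47.3 CPM in CK1i and 18.8, 29.9 and 17.0 CPM in CTRL. The groups did not overlap in either gene, and the highest CK1i library was replicate 2 for Ube2c and replicate 3 for Ccnb2. Kif20a, a kinesin of cytokinesis, had 60.5, 80.9 and 65.8 CPM in CK1i and 31.2, 43.5 and 39.1 CPM in CTRL. Top2a, which untangles chromosomes before they separate, had 745, 1101 and 699 CPM in CK1i and 322, 605 and 655 CPM in CTRL. Mki67, the source of the Ki-67 proliferation antigen, had 183, 307 and 181 CPM in CK1i and 70.6, 149 and 124 CPM in CTRL. Top2a and Mki67 were both highest in CK1i replicate 2. There Lmo7 held the middle place of its group, at 62.0 CPM, close to the 60.9 CPM of replicate 1. Pttg1, which encodes securin, was the 1 tested member with a lower value, at a log2 fold change of -0.016 ± 0.19 (SE), and was named after its values were seen.

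DNA replication genes showed smaller differences. Of the 40, all tested, 37 were higher (92.5%, against 48.8% of all tested genes). Of these 5 had an unadjusted edgeR p under 0.05 (2.70% of all tested genes were higher at that p), and 0 passed over all genes. The median log2 fold change was 0.35, none was as large as that of Lmo7, and without CTRL replicate 1 the median was 0.11. Rrm1, a subunit of ribonucleotide reductase, had 0.53 ± 0.18 and Mcm4, part of the replicative helicase, 0.59 ± 0.22 (log2 fold change ± SE). Mcm6, another helicase subunit, had 0.38 ± 0.15 and Prim1, the primase, 0.53 ± 0.23.

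**Figure D2:**
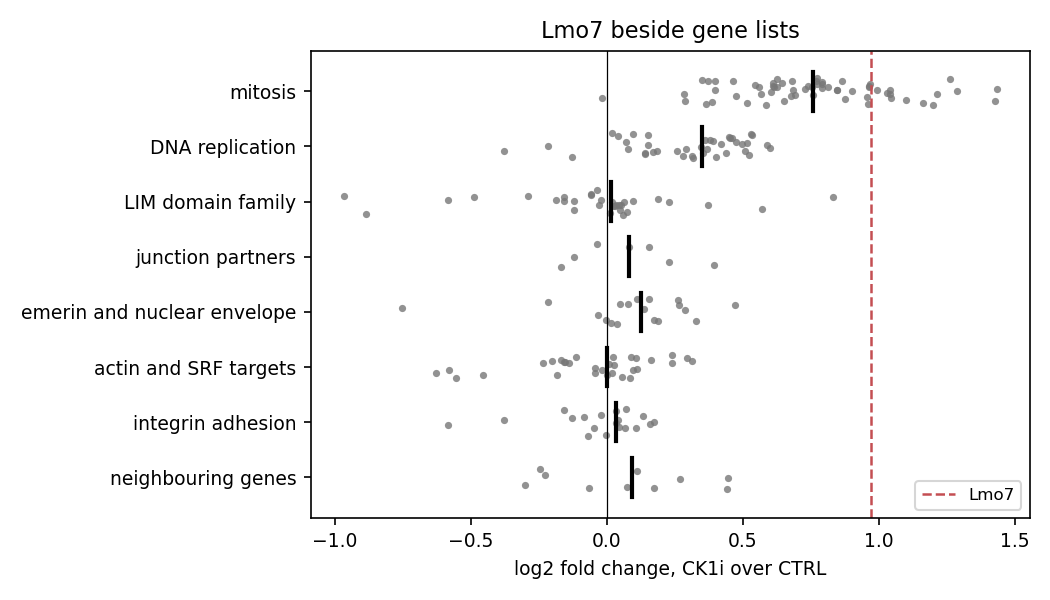
Log2 fold change of CK1i over CTRL for the tested members of 8 gene lists; each point is a gene, black bars are list medians and the dashed red line is Lmo7 at 0.97. The mitosis list has a median of 0.76 and the DNA replication list 0.35, while the lists of relatives, partners and neighbours of Lmo7 have medians between 0.0026 and 0.13.

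Whether Lmo7 followed the mitosis genes from library to library could be asked within the groups. The order of the libraries there had no part in the choice of the gene, while the spread there did, through the rank by p. A mitosis score was taken as the mean over the 62 tested members of their log2 CPM. It was 5.56, 6.05 and 5.62 in CK1i replicates 1 to 3, against 4.55, 5.32 and 5.08 in CTRL replicates 1 to 3. Lmo7 had log2 CPM values of 5.94, 5.97 and 6.49 in CK1i and 4.88, 5.47 and 5.19 in CTRL. In CTRL both were lowest in replicate 1 and highest in replicate 2. In CK1i they parted: the score was highest in replicate 2 and Lmo7 in replicate 3, where the score lay near that of replicate 1. Lmo7 minus the score was 0.39, -0.082 and 0.88 in CK1i replicates 1 to 3, against 0.33, 0.15 and 0.10 in CTRL replicates 1 to 3, so this difference overlapped between the groups.

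Deviations of Lmo7 and of the mitosis score from their group means had a Pearson r of 0.40 over the 6 libraries (exact permutation p = 0.472 over the 36 pairings within groups, two-sided, adjusted p = 0.687). Spearman's rho was 0.60 (exact permutation p = 0.278, adjusted p = 0.79). These were 1 of 16 relations computed, and no p can fall below 0.0278. CTRL replicates 1 and 2 had the deviations of the score farthest from the median deviation. Without them r was -0.36, so the relation rests on those libraries. Only CTRL replicate 3 was then left of its group, with deviations still taken from the means of the full groups. Leaving out single libraries gave r from -0.14 without CTRL replicate 1 to 0.85 without CK1i replicate 3. With the mitosis score as a covariate in the edgeR fit, the log2 fold change of Lmo7 was 0.74 ± 0.32 (SE). The score did not overlap between the groups, at 5.56 to 6.05 in CK1i and 4.55 to 5.32 in CTRL, so this fit cannot part the treatment from the score. Gene by gene, 55 of the 62 mitosis genes had a positive within-group r with Lmo7 (88.7%, against 51.1% of all tested genes), with a median r of 0.34. The genes share the same 6 libraries, so this count is a description.

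**Figure D3:**
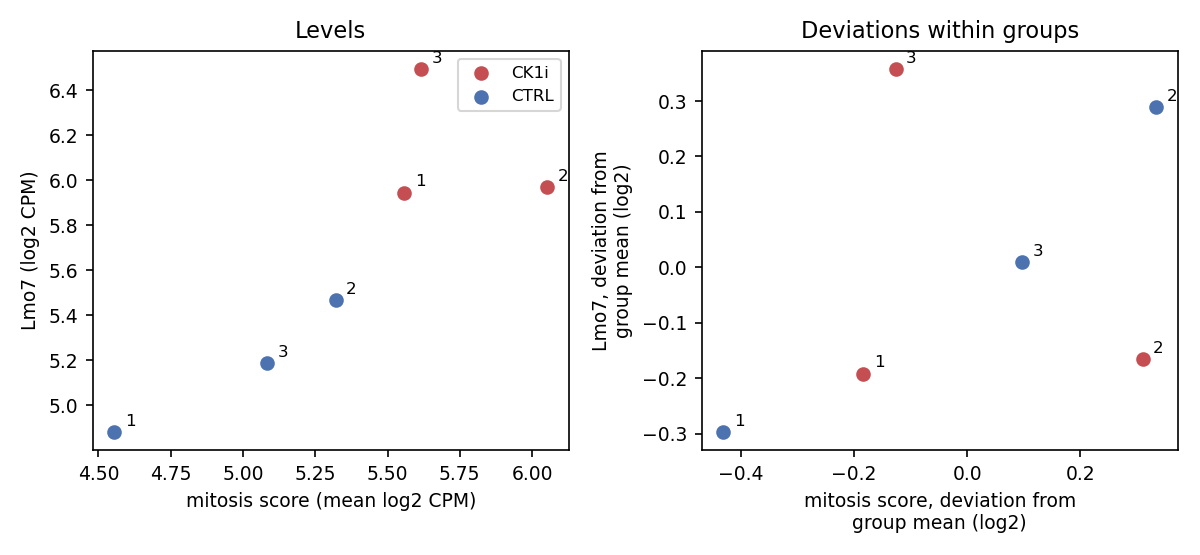
Lmo7 against the mitosis score in each library, as log2 CPM on the left and as deviations from the group means on the right; numbers beside points are replicates, CK1i is red and CTRL blue. The CTRL libraries keep the same order on both axes, while CK1i replicate 3 has the highest Lmo7 value, 6.49, at a mitosis score of 5.62.

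Other library measures were set beside Lmo7 in the same way. The heat shock score had a Pearson r of -0.88 within groups (exact permutation p = 0.0833, adjusted p = 0.444) and a Spearman rho of -0.89 (exact permutation p = 0.0833, adjusted p = 0.593). Without CTRL replicates 1 and 2, whose deviations of this score lay farthest out, r was -0.76. The score was lowest in CK1i replicate 3 and CTRL replicate 2, the libraries in which Lmo7 was highest within its group. The same 2 libraries had the lowest totals, 2472064 and 2472320 counts. The log2 library total had a Pearson r of -0.84 with Lmo7 (exact permutation p = 0.0833, adjusted p = 0.444) and a rho of -0.49 (exact permutation p = 0.417, adjusted p = 0.79). Without CK1i replicate 3 and CTRL replicate 2, whose deviations of the total lay farthest out, r was 0.86, so its relation rests on those libraries. The epithelial marker score, of 3 tested genes, had an r of -0.84 and a rho of -0.94, the largest rho in size. The nuclear envelope score had an r of -0.75 and a rho of -0.66, and the B and CLL marker score 0.68 and 0.83. Each of these was larger in size than that of the mitosis score, at 0.40 and 0.60. The smallest adjusted permutation p over the 16 relations was 0.444 for r and 0.593 for rho. As a list, the 15 heat shock genes were all higher in CK1i (48.8% of all tested genes were), with a median log2 fold change of 0.43. Of these 3 had an unadjusted edgeR p under 0.05 (2.70% of all tested genes were higher at that p), and 0 passed the adjustment over all genes. The 3 were Hsp90aa1, Hspd1 and Hspe1, which encode chaperones. The heat shock genes thus had higher values in CK1i on average, while their score ran against Lmo7 within the groups. The groups overlapped in every heat shock gene but Hspd1. Over all tested genes, 5.22% had all CK1i libraries above all CTRL libraries. The groups also overlapped in the score, at 8.35 to 9.40 in CK1i and 7.54 to 8.88 in CTRL. The 18 tested immediate early genes had 5 higher and 13 lower, with a median of -0.067 and 0 at an unadjusted p under 0.05. Their smallest p belonged to Egr3, a transcription factor of lymphocyte activation, at -0.59 ± 0.37, and Btg2, an inhibitor of proliferation, at 0.17 ± 0.13 (log2 fold change ± SE). The part of depth or of heat shock genes in the spread of Lmo7 was not tested. Mean log2 library totals differed by 0.037 between CK1i and CTRL.

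**Figure D4:**
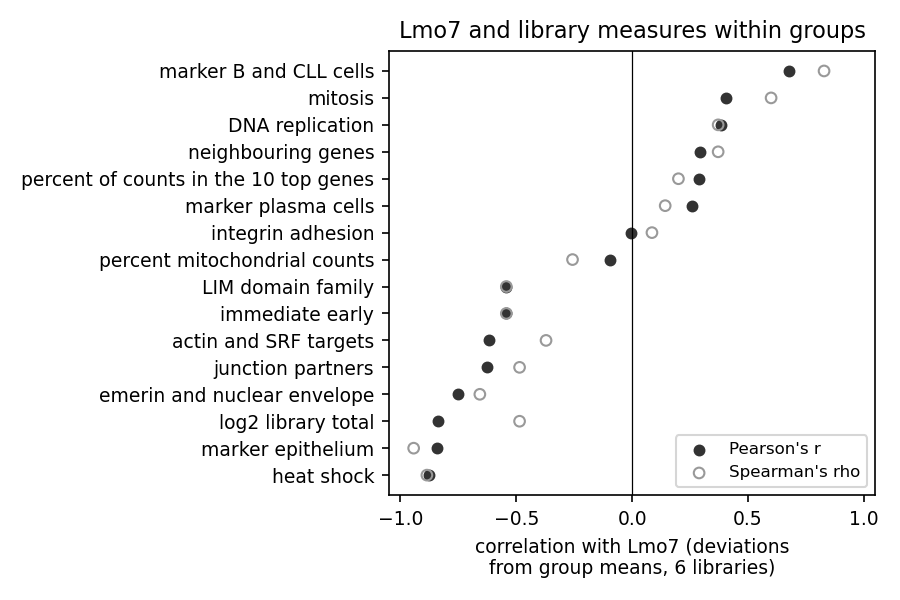
Correlation of Lmo7 with 13 list scores and 3 library measures, computed on deviations from group means over 6 libraries; filled points are Pearson's r and open points Spearman's rho. The mitosis score is at 0.40 and 0.60, and the heat shock score is at -0.88 and -0.89.

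Protein partners of LMO7 and genes of the junctions it joins were largely at low or similar levels. Of 15 genes of the nectin, afadin and cadherin system, 12 had a count and 7 could be tested, 4 of them higher, with a median log2 fold change of 0.081 and 0 past the adjustment over all genes. Actn1, an alpha-actinin, had 155, 153 and 150 CPM in CK1i replicates 1 to 3 and 88.7, 129 and 130 CPM in CTRL replicates 1 to 3. Its groups did not overlap (log2 fold change 0.40 ± 0.16, SE; edgeR adjusted p = 0.999), and CTRL replicate 1 was the lowest library, as for Lmo7. Actn4, the other non-muscle alpha-actinin, had a log2 fold change of 0.16 ± 0.15 and Afdn, which encodes afadin, 0.081 ± 0.17 (SE). Cdh1, which encodes E-cadherin, Nectin3 and Bcar1 had no count in any of the 6 libraries. By sampling alone, 0 counts allow a level of up to 0.177 CPM over them. That limit holds only if no reads of the gene were lost in counting, which was not tested.

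Genes of the nuclear envelope were mostly higher in CK1i, but not emerin itself. Emd, which encodes emerin, had 90.2, 67.8 and 65.4 CPM in CK1i replicates 1 to 3 and 69.9, 83.4 and 70.4 CPM in CTRL replicates 1 to 3, so the groups overlapped (log2 fold change -0.00034 ± 0.16, SE). Of the 18 tested genes of this list 14 were higher (77.8%, against 48.8% of all tested genes), with a median of 0.13, and 0 passed over all genes. Lbr, the lamin B receptor, was the 1 member with an unadjusted edgeR p under 0.05 (log2 fold change 0.33 ± 0.14, SE; adjusted p = 0.999). Its groups did not overlap, nor did those of Syne3, a nesprin, at 0.47 ± 0.23, and Tmpo, which encodes lamina-associated polypeptide, at 0.27 ± 0.14. Over all tested genes, 4.70% had an unadjusted edgeR p under 0.05, and 5.22% had all CK1i libraries above all CTRL libraries. Lmna, which encodes the A-type lamins, had the lowest value of the list, -0.75 ± 0.71, with overlapping groups. Syne3, Tmpo and Lmna were named after their values were seen.

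Other LIM domain genes were split between higher and lower values. Of 58 genes of the family, 38 had a count and 32 could be tested, 17 of them higher and 15 lower. Their median log2 fold change was 0.017, and 0 passed over all genes. None had a log2 fold change as large as that of Lmo7. Limch1, the closest relative of Lmo7 in domain order, was also at 0 counts, with the same limit on the same condition. Lmo4, a LIM-only cofactor of transcription, had 31.3, 22.2 and 31.3 CPM in CK1i replicates 1 to 3 and 20.6, 13.2 and 22.7 CPM in CTRL replicates 1 to 3. Its groups overlapped (log2 fold change 0.57 ± 0.23, SE; edgeR adjusted p = 0.999). Lmo2, a LIM-only protein of blood cell development, had a log2 fold change of -0.19 ± 0.25 (SE). Lima1, an actin cross-linker also named EPLIN, had 4.28, 4.89 and 3.21 CPM in CK1i and 10.3, 7.98 and 6.34 CPM in CTRL (log2 fold change -0.97 ± 0.34, SE; edgeR adjusted p = 0.929). It ran against Lmo7 in direction, at low counts.

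Actin genes and targets of serum response factor (SRF) had 31 tested members, 16 higher and 15 lower. The median of their log2 fold changes was 0.0026, and 0 had an unadjusted edgeR p under 0.05. Srf itself had 0.055 ± 0.20, Myl12b, a myosin light chain, 0.31 ± 0.16, and Tagln2, an actin-binding transgelin, -0.58 ± 0.31 (log2 fold change ± SE). Actg1 had 7 counts over all libraries against 9935 ± 1032 CPM in CK1i and 9755 ± 1376 CPM in CTRL for Actb, so reads of near-identical copies may be lost in counting and Actg1 is not read as absent. Integrin adhesion had 19 tested members, 10 higher and 9 lower, with a median of 0.035. Ptk2, which encodes focal adhesion kinase, had 17.8, 17.3 and 18.0 CPM in CK1i replicates 1 to 3 and 33.7, 20.4 and 25.4 CPM in CTRL replicates 1 to 3 (log2 fold change -0.58 ± 0.22, SE; edgeR adjusted p = 0.943). It was the 1 member of that list with an unadjusted p under 0.05, and its groups did not overlap. Over all tested genes, 4.70% had an unadjusted edgeR p under 0.05, and 4.48% had all CK1i libraries below all CTRL libraries.

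The genes around Lmo7 on chromosome 14 had small differences in both directions. The 5 nearest tested genes on each side had a median log2 fold change of 0.094, with 6 higher and 4 lower and 0 with an unadjusted edgeR p under 0.05. Uchl3, a ubiquitin hydrolase that ends 33.8 kb before Lmo7, had 119, 109 and 188 CPM in CK1i replicates 1 to 3 and 107, 117 and 81.5 CPM in CTRL replicates 1 to 3. Its groups overlapped (log2 fold change 0.44 ± 0.21, SE; edgeR adjusted p = 0.999), and CK1i replicate 3 was its highest library, as for Lmo7. Commd6, 89.3 kb before Lmo7, had -0.064 ± 0.17, and after Lmo7 came Gm34589, a non-coding gene at 883 kb, with 0.45 ± 0.35, and Kctd12, which encodes a GABA-B receptor subunit, at 1042 kb with 0.17 ± 0.13 (log2 fold change ± SE).

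**Figure D5:**
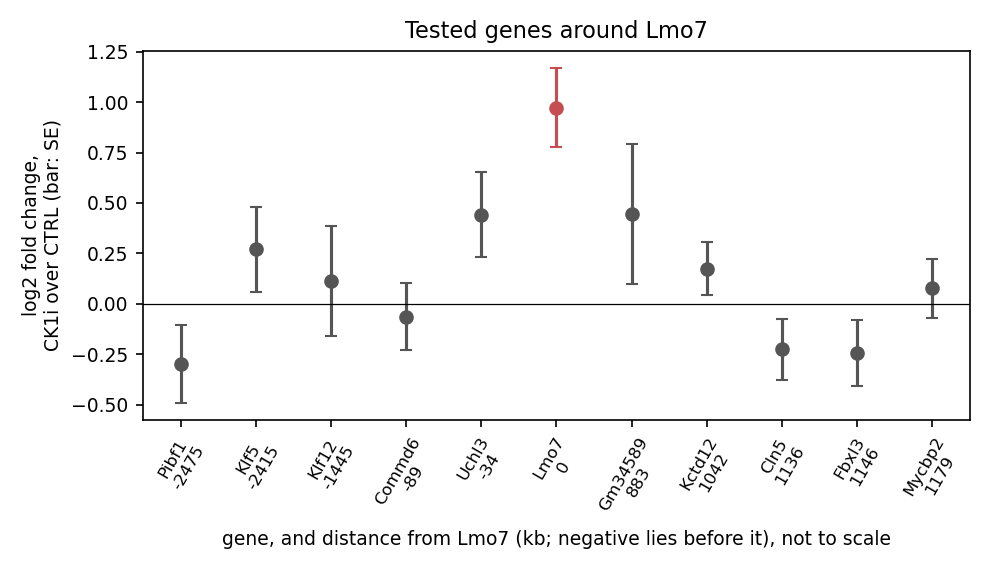
Log2 fold change of CK1i over CTRL for Lmo7 (red) and the 5 nearest tested genes on each side (grey), in order along the chromosome and labelled with the distance in kb; bars are standard errors. Lmo7 is at 0.97, and the 10 neighbours lie between -0.30 and 0.45.

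Of the 8286 genes with a mean of at least 10 CPM, 7885 remained after Lmo7 itself, immunoglobulin segments, pseudogenes and unnamed gene models were set aside, and these were ranked by how closely their log2 CPM followed Lmo7 over the 6 libraries. The leading 6 were Ntan1 (Pearson r 0.97), an amidase of the N-degron pathway, Tmem64 (0.97), Xrcc1 (0.96), a scaffold of DNA single-strand break repair, Tubgcp2 (0.96), part of the gamma-tubulin complex, Mta1 (0.96), a subunit of the NuRD chromatin complex, and Rpl15 (0.96), a ribosomal protein whose count is uncertain because of its processed copies. In all, 11 of the 7885 had an r above 0.95, and none of the leading 6 is in the mitosis list. The best-placed mitosis gene among the 7885 was Ccnb2, at rank 22 with an r of 0.94. With a mean below 10 CPM, and so outside this ranking, the mitosis gene Cep55, which serves the last step of cytokinesis, had an r of 0.97, level with the leading genes. It had 12.2, 11.7 and 16.4 CPM in CK1i replicates 1 to 3 and 5.32, 7.19 and 5.01 CPM in CTRL replicates 1 to 3, and was named after its values were seen. Xrcc1 had 133, 140 and 176 CPM in CK1i replicates 1 to 3 and 85.2, 131 and 104 CPM in CTRL replicates 1 to 3. The order of the libraries within each group was that of Lmo7, although CTRL replicate 2 came close to CK1i replicate 1. Mta1 had 37.5, 32.3 and 51.7 CPM in CK1i and 19.9, 30.3 and 27.0 CPM in CTRL. By deviations from group means the leading 6 were Foxred2, Tmem140, Htra2, Ly6a, Sapcd1 and Tdp1, with r between 0.989 and 0.995 over 6 libraries, and their log2 fold changes ran from -0.18 for Htra2, a mitochondrial protease, to 0.62 for Sapcd1. Of the 7885 genes 63 had a within-group r above 0.95. These likenesses carry no p, since the leading genes are the top of a long ranking over only 6 libraries.

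Markers of other cell types differed widely in level. The summed level of 11 monocyte and macrophage markers was 36.9 to 47.1 CPM in CK1i and 27.7 to 31.5 CPM in CTRL, without overlap. Most of it was Cd68, which averaged 32.8 ± 1.96 CPM over the CK1i libraries and 23.3 ± 2.14 CPM over the CTRL libraries (SD, n = 3). Cd14 was at 0. This sum and Cd68 were higher together with Lmo7 in CK1i, but the other markers were mixed. Itgam, the other tested marker, had overlapping groups (log2 fold change 0.44 ± 0.52, SE). Of those with too few counts to test, Lyz2, Adgre1, Vcam1 and Marco had more counts in CK1i, and Csf1r and C1qb fewer. C1qa and C1qc had as many counts in CK1i as in CTRL. The part of these markers in the difference of Lmo7 was not tested. Of 7 epithelial markers, a tissue where LMO7 is known best, Cdh1, Krt19, Cldn4 and Cldn7 were at 0, and the sum was 28.5 to 40.8 CPM in CK1i and 41.7 to 79.9 CPM in CTRL, opposite to Lmo7. Its largest part was Krt8, a keratin, at 15.4 ± 4.46 CPM over the CK1i libraries and 33.1 ± 19.0 CPM over the CTRL libraries (SD, n = 3). The groups did not overlap in the sum or in Krt8. Krt18, another keratin, was also lower, at a log2 fold change of -0.64 ± 0.27 (SE), with overlapping groups. Epcam, an adhesion molecule of epithelia, went with Lmo7, at a log2 fold change of 0.52 ± 0.29 (SE), and its groups did not overlap. The sum of 14 stromal and endothelial markers was 164 to 178 CPM in CK1i and 177 to 191 CPM in CTRL, with 7 of the 14 at 0. Nearly all of it was Pecam1, which averaged 165 CPM over the CK1i libraries and 179 CPM over the CTRL libraries. T-cell markers summed to 3.59 to 18.4 CPM in CK1i and 5.19 to 12.4 CPM in CTRL, with none of 9 at 0. The sums for 7 NK-cell, 8 neutrophil, 7 erythroid and 6 platelet markers were at most 6.20 CPM in CK1i and 5.68 CPM in CTRL. Of these, the NK-cell sum did not overlap between groups, at 0.802 to 1.32 CPM in CK1i and 0.334 to 0.798 CPM in CTRL, from 15 counts in all. Dendritic cell markers summed to 118 to 153 CPM in CK1i and 111 to 135 CPM in CTRL, largely Cst3, and plasma cell markers, which B-lineage cells share in part, to 1027 to 2176 CPM in CK1i and 1717 to 2527 CPM in CTRL.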

How the data were processed

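The table holds whole-number counts per Ensembl gene that the authors deposited. Per the labels' protocols, the libraries were made with a QuantSeq 3' forward kit with unique molecular identifiers. The submitters' processing notes list UMI-tools 1.1.1, Trimmomatic 0.36, STAR 2.7.3a and featureCounts 1.6.3 among their tools, with the build GRCm38.p6. The sources used here do not say whether identifiers were collapsed or how strand was handled in counting. All libraries carry the same batch label.

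The analysis used edgeR 4.0.16 under R 4.3.3: filterByExpr (minimum count 10, minimum total 15) left 10067 genes, which were scaled by TMM and tested by the robust, bias-adjusted quasi-likelihood F test with Benjamini-Hochberg adjustment at 0.05. SE is the log2 fold change divided by the root of F. Log2 CPM uses a prior count of 2. DESeq2 1.42.0 and limma 3.58.1 were alternatives. The procedure was tested on simulated data. Pairs of libraries differed by more than sampling noise (chi-square per degree of freedom 4.02 to 10.7). Of the identifiers, 54165 matched GENCODE M21, which has the same build and gave names missing from the table. Nemp1 and Hbb-bs were not found.

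The gene, the lists and the tests were chosen with earlier results of these data known, and the promoter motifs after the Lmo7 windows were seen. Named were Lmo7, members of the lists other than cell type markers with an unadjusted p under 0.05 (up to 4, or 8 for mitosis) or else the 2 with the smallest p, the nearest neighbours, the 6 most alike genes by each measure and a fixed set of relatives, partners and markers. RefSeq windows were found for 56 mitosis genes and 48 LIM domain genes.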

Additional observations from a re-analysis of the deposited data

How the results depend on the processing

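Under the 8 alternatives that kept all libraries, the log2 fold change of Lmo7 ranged from 0.74 (mitosis score as a covariate) to 0.98 (library totals only), and leaving out single libraries gave 0.77 (without CK1i replicate 3) to 1.12 (without CTRL replicate 2). Leaving out single libraries moved the median log2 fold change of the mitosis list between 0.53 and 0.87, of the DNA replication list between 0.11 and 0.48, of the LIM domain family between -0.053 and 0.025, and of the neighbouring genes between 0.032 and 0.14. The LIM domain median turned below 0 without CK1i replicate 1 or 3 and without CTRL replicate 2 or 3. Other scalings, filters and tools changed these 4 medians by less than the spread between replicates. The count of genes past the threshold was 3 with no filter on low counts (Wnt10a, Troap and Lmo7) and 8 in DESeq2 (Lmo7, Troap, Wnt10a, Cenpf, Nusap1, Ube2c, Traf3 and Gm23935), and 0 to 1 with a library left out. Lmo7 was chosen on this contrast, so its presence in the first 2 lists is no test of it. The single gene was Traf3 without CK1i replicate 2, mt-Tq without CTRL replicate 1 and Wnt10a without CTRL replicate 3, and the cause was not tested. The within-group correlation of Lmo7 with the mitosis score was 0.25 to 0.46 under other scores, scalings and prior counts, and leaving out single libraries moved it between -0.14 and 0.85, with the sign turned without CTRL replicate 1. No paired analysis was possible because the labels give the groups no shared replicate numbers, and the numbers 1 to 3 used here only name libraries. With 81 to 223 counts per library, counting error alone limits each Lmo7 value.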
